A study of Mus musculus with 12 samples.

Results

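Hippocampal RNA of 9 adult mice with any early exposure (ethanol, stress or ethanol + stress) was set against that of 3 control mice, to ask which genes stood apart in exposed mice whatever the exposure had been. A gene was taken as a member where its level in all 9 exposed mice lay on one side of its level in all 3 control mice. Of 14455 genes with a mean of 1 TPM or more, 81 met this rule (0.56%), 53 of them higher in exposed mice (0.367%) and 28 lower (0.194%). With no difference between the groups, a gene would meet the rule with a probability of 0.00909, which is above the share found. The number of members alone therefore does not show a response to exposure. The genes with the clearest identity among the higher ones were the 4 adult hemoglobin genes and Alas2, the erythroid enzyme of heme synthesis. Other members included Tmem253 and a short transcript of Ctrc above the controls and the pseudogene Gm48848 below them. The lower genes of high abundance, such as Cpne7, Ak5, Pja1 and Eno1, were separated from the controls by small differences.

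All 12 mice were males labelled C57BL/6, given as C57BL/6J in the methods of the study, with no introduced allele, killed at postnatal day 70 after carbon dioxide asphyxiation, and each group held 3 mice. The dams of control and stress mice drank water, and the dams of ethanol and ethanol + stress mice could choose between water and 10% ethanol, so that intake was voluntary. Ethanol was offered during gestation per the labels, and the methods of the study add that it stayed available for a time after birth, so that these pups were also nursed by drinking dams. Stress and ethanol + stress pups were isolated from dam and nest for 3 h daily, postnatal days 2 to 14, and they were drawn from the same litters as pups left with the dam. Which mice were littermates is not given in the labels, and a shared litter was not tested.

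TPM counts the copies of a transcript among a fixed total number of transcripts and so corrects for length. The values had been scaled between libraries and summed to between 942219.5 and 986540.7 in control and between 889222.3 and 1173650 in exposed libraries, with 3 exposed libraries above 1100000 (ethanol replicate 2 and ethanol + stress replicates 2 and 3). The size of 1 read pair, recovered from low values, gave 12020000 to 13300000 read pairs in control and 12180000 to 14900000 in exposed libraries. Marker genes of dentate granule, CA1 and CA3 pyramidal cells were present in every library, with summed levels of 135 to 173, 182 to 266 and 225 to 271 TPM. Marker genes of choroid plexus, a tissue next to the hippocampus, varied most, from 624 to 1850 TPM in control and from 41.2 to 7270 TPM in exposed libraries. In bulk tissue, fewer cells of a type and less RNA per cell cannot be told apart.

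The hippocampus forms spatial and contextual memory and is a target of stress hormones, since its neurons carry receptors for corticosteroids. Ethanol reaches the fetal brain through the placenta, and isolation of rodent pups from the dam raises their corticosterone. Tissue taken at adulthood also holds whatever blood was in its vessels.

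Hemoglobin is made by red cell precursors and carried as protein and leftover mRNA by circulating red cells, and Alas2 makes the heme that it holds. Hba-a1 and Hba-a2 encode alpha globin, and Hbb-bs and Hbb-bt encode beta globin. All 5 lay above the controls in every exposed mouse. The bases just upstream of these genes are shown because they are the members with one shared function, and because words for the erythroid factors GATA1 and KLF1 are known from globin promoters. The letters come from RefSeq (GRCm38.p6) and end before the first base that GENCODE annotates for the gene, so they hold no transcribed sequence. They are chr11:32296242-32296488 (plus strand) for Hba-a2, chr7:103828097-103828178 (minus strand) for Hbb-bs, chr7:103813997-103814173 (minus strand) for Hbb-bt and chrX:150547167-150547374 (plus strand) for Alas2. Capitals mark GATA words (AGATAA or AGATAG, or either of them with T in place of the opening A), the CACCC box and the CCAAT box, each on either strand. The first base in GENCODE lies before the RefSeq start of each gene, so bases next to that start are left out. They number 3 for Hba-a2, 168 for Hbb-bs, 73 for Hbb-bt and 42 for Alas2. The bases left out hold the CACCC and CCAAT matches of Hbb-bs, all CACCC matches of Alas2 and a further CCAAT match of Hbb-bt. A box not seen below may therefore lie in the bases left out.
Hba-a2: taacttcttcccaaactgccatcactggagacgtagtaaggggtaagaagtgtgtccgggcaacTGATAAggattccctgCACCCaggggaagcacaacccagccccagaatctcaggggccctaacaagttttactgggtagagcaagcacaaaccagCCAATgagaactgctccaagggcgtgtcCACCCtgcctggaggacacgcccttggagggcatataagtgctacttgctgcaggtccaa
Hbb-bs: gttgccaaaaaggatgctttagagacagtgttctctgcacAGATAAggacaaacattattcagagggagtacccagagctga
Hbb-bt: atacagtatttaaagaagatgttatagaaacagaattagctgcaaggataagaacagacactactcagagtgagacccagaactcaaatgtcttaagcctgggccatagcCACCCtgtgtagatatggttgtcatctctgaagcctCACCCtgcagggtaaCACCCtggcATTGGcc
Alas2: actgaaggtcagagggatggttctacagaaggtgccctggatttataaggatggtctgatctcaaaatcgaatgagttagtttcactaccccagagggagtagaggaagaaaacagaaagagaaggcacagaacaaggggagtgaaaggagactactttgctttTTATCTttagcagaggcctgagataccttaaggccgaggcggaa

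The 250 bases before the RefSeq start of Hba-a1 hold the same letters as those of Hba-a2 at 247 of 247 positions compared, shifted by 3 bases. In the 250-base windows of all 32851 RefSeq promoters, a GATA word was found in 26.5%, CACCC in 52.0% and CCAAT in 33.8%, on either strand. The end of a CACCC match may be shared with a CCAAT match. Of the 53 higher members, 36 had an entry under their symbol, with 56 promoters, of which 19.6% held a GATA word, 55.4% CACCC and 35.7% CCAAT. For the 21 lower members with an entry the shares over 31 promoters were 6.45%, 51.6% and 45.2%. A match is a description of letters and not a site.

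Across all genes, limma called 68 at an unadjusted p under 0.01 (0.47%), 52 of them higher (0.36%) and 16 lower (0.111%) in exposed mice. The study used the same threshold, but for transcripts tested with sleuth and for each exposure separately. At an unadjusted p under 0.05 there were 388 genes, and none passed an adjusted p of 0.05. Among the 81 members, 32 were called, 25 higher and 7 lower. Since the members were chosen on the same values, these counts describe them and lend them no support. The other 36 called genes overlapped between the groups in at least 1 mouse. For a single gene, the smallest two-sided p that an exact permutation of 9 against 3 mice can give is 0.00909, which is the p of every member. The rule fixes this p, so it tests nothing. With no difference between the groups, a share of 0.00909 of genes would meet the rule on average, against the 0.56% found. Likewise a share of 0.01 would be called at a p under 0.01, against the 0.47% called.

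The 4 hemoglobin genes summed to 2015, 1597 and 1732 TPM in the control mice. They summed to 3459, 6793 and 3132 TPM in ethanol mice, to 3381, 2580 and 2802 TPM in stress mice, and to 2444, 6462 and 3965 TPM in ethanol + stress mice. The lowest exposed mouse, ethanol + stress replicate 1, was above the highest control mouse, and ethanol and ethanol + stress replicate 2 were far above the other exposed mice. The mean was 1781 ± 213 TPM (SD, n = 3) in control and 3891 ± 1620 TPM (SD, n = 9) in exposed mice. As a share of the library, hemoglobin took 0.168% to 0.204% in control and 0.265% to 0.579% in exposed mice. The rule fixed in advance that the sums do not overlap. The shares rest on the same values, so neither lends the genes further support.

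Alas2 (chrX:150547375-150570638) was at 7.16, 5.90 and 8.15 TPM in control mice. It was at 12.5, 21.4 and 13.9 TPM in ethanol, 10.9, 13.4 and 11.0 TPM in stress and 10.0, 17.6 and 12.9 TPM in ethanol + stress mice. Its highest exposed values were again in ethanol and ethanol + stress replicate 2, and no exposed mouse reached down to the controls. The difference between exposed and control mice on the log2(TPM + 0.5) scale, the mean of the 3 exposed groups minus control, was 0.89 (SE 0.18, limma adjusted p = 0.77), a call by the threshold above. The ratio of summed hemoglobin to Alas2 was 212 to 281 in control and 193 to 367 in exposed mice, and these ranges overlapped. The last exons of Alas2 lie on the opposite strand to exons of Apex2 over 15.3% of its main transcript.

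The same difference was 1.04 for Hba-a1 (SE 0.24), 1.0 for Hba-a2 (SE 0.24), 1.06 for Hbb-bs (SE 0.30) and 1.0 for Hbb-bt (SE 0.27). All 4 were called, each with a limma adjusted p of 0.981. Each of the 3 exposed groups lay above control, with Hba-a1 at 1.28 (ethanol), 0.76 (stress) and 1.08 (ethanol + stress) on that scale, and Hbb-bs at 1.24, 0.72 and 1.22 in the same order. These differences share the same control mice. Hba-a1 and Hba-a2 transcripts matched at 99.8% of aligned bases and Hbb-bs and Hbb-bt at 93.8%, so that the split of reads within each pair is uncertain. The 5 blood genes were called in all 6 scalings compared, the main one included. Without the 3 libraries of largest sum, which leaves 1 ethanol + stress mouse, the median difference of the list was 0.68 in place of 1.0. All 5 were highest in the same 2 mice and were chosen on these values. Their calls are therefore not 5 separate results and lend them no support. Hbb-bs lost its call without any of the control replicates and Hbb-bt without control replicate 2 or 3.

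**Figure D1:**
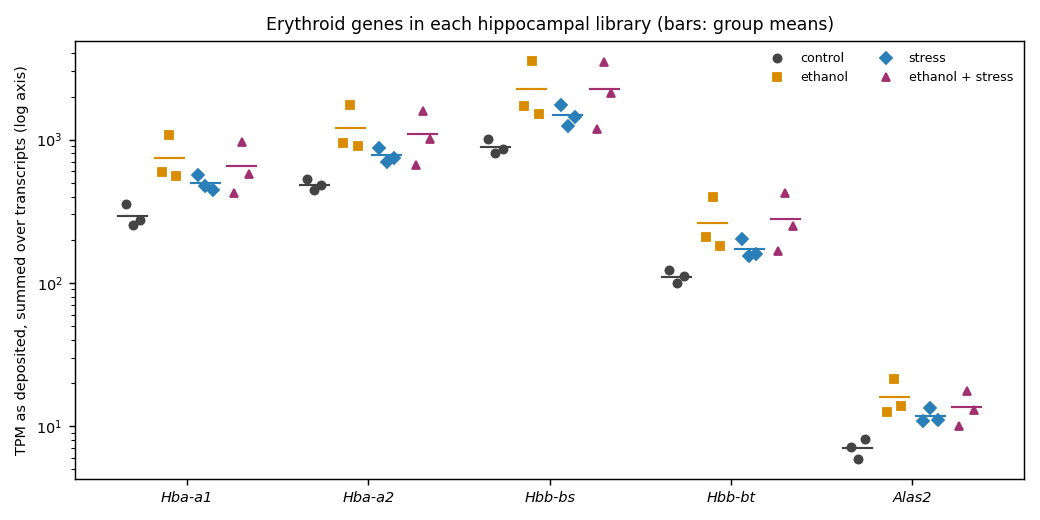
TPM of the 4 hemoglobin genes and Alas2 in each library, on a log axis, with points for mice and bars for the means of the 4 groups (n = 3 each). For each gene all 9 exposed mice lie above the 3 control mice, and the highest points are ethanol and ethanol + stress replicate 2.

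The summed levels of markers of other cells that adjoin blood overlapped between the groups. The 9 endothelial and pericyte markers summed to 220 to 236 TPM in control and 204 to 262 TPM in exposed mice, and 5 of the 9 had a positive difference, with a median of 0.04. The 9 microglial markers summed to 484 to 541 and 422 to 693 TPM, with 7 positive and a median of 0.03. None of these 18 genes was a member or called, and at 0.56% of all genes members and 0.47% called, a list of this size would be unlikely to hold one. The amount of blood left in the tissue was not measured separately, and its part in the hemoglobin result was not tested.

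**Figure D2:**
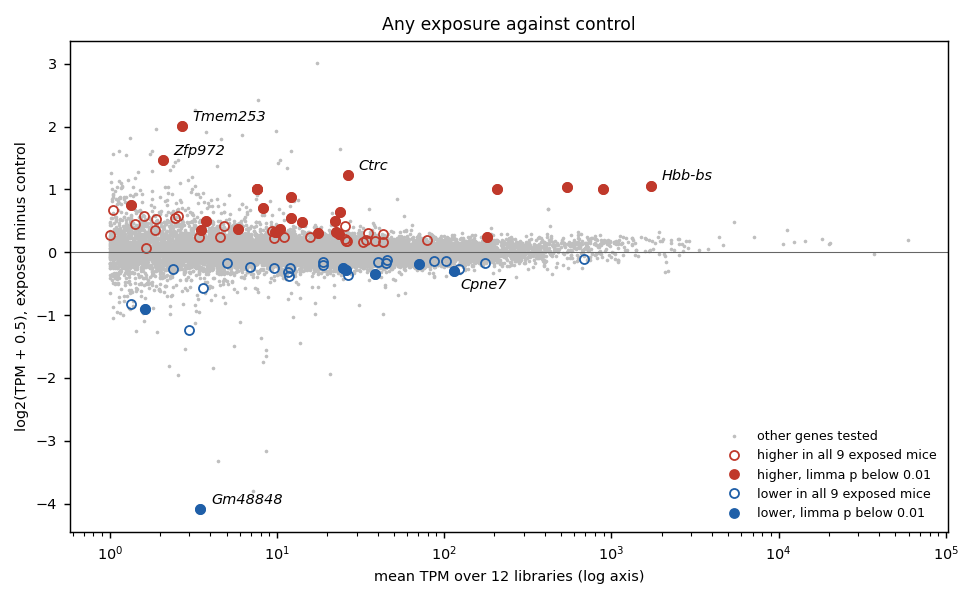
Difference between exposed and control mice in log2(TPM + 0.5) for each of the 14455 genes against its mean TPM over 12 libraries on a log axis. Red and blue circles mark the 53 higher and 28 lower members, filled where the limma p was under 0.01, and grey dots mark all other genes, many of which lie as far from 0 as the members.

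Tmem253 (ENSMUSG00000072571.3, chr14:52015658-52019794, plus strand), a predicted transmembrane protein of little known function, was at 0.233, 0.419 and 0.741 TPM in control mice. It was at 4.29, 3.48 and 4.78 TPM in ethanol, 4.43, 1.63 and 1.79 TPM in stress and 3.97, 3.12 and 3.46 TPM in ethanol + stress mice. The lowest exposed mouse, stress replicate 2, was still above the highest control. Tmem253 was called with a log2 difference of 2.0 (SE 0.25), and its limma adjusted p of 0.0664 was the lowest of all genes. These values rested on 1.99 to 5.97 recovered read pairs in control, around the floor of 3 read pairs that counting error cannot tell from 0, and 8.50 to 15.4 in exposed mice. The size of the difference is therefore uncertain, and it ran from 1.27 to 2.67 over the alternatives.

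The transcript with the largest part of the Tmem253 difference is not a coding one. A processed transcript of 347 bases with 3 exons, annotated without a coding sequence, was listed at 0 in all control mice and in stress replicate 2, and held 46.8% of the exposed sum. The main coding transcript of 1234 bases held 97.1% of the control sum and 21.8% of the exposed sum, and it overlaps exons of Zfp219 on the opposite strand over 21.6% of its length. With only protein-coding transcripts the log2 difference was 1.27 (adjusted p = 0.978) and the groups overlapped.

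Ctrc (chr4:141814962-141846359, minus strand) encodes chymotrypsin C, a digestive protease of the pancreas. It was at 12.6, 14.5 and 10.9 TPM in control mice, and the exposed mice ran from 20.6 through a median of 29.3 to 49.4 TPM, with no overlap. Ctrc was called with a log2 difference of 1.23 (SE 0.23, limma adjusted p = 0.576). All of this value belonged to a processed transcript of 310 bases and 2 exons (chr4:141844836-141845228), with no coding sequence, and the protein-coding transcripts of the gene were listed at 0. The transcript rested on 9.45 to 11.8 read pairs in control and 21.1 to 40.6 in exposed mice.

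Gm21748 and Gm21860 on chromosome Y are single-exon models of 309 bases with identical sequence, and their values were equal in every library, so they count as 1 observation among the higher members. Each was at 5.19, 3.68 and 3.43 TPM in control mice and ran from 6.22 through 8.50 to 12.9 TPM in exposed mice, without overlap. The pair was called with a log2 difference of 1.0 (SE 0.20, limma adjusted p = 0.648), and both the call and the separation were lost with the length trend removed. The control values of each copy were worth 2.95 to 4.55 read pairs, about the floor of 3. As the 2 copies had equal values, the pair together rests on more read pairs than this. They remain few, so the size of the difference is uncertain. Zfp972, a zinc finger gene, was at 0.0255, 1.08 and 0.973 TPM in control and ran from 1.47 through 2.43 to 3.63 TPM in exposed mice. Its control values were worth 0.0754 to 2.89 read pairs, all under that floor, while exposed values were worth 4.66 to 10.9, so its fitted difference of 1.47 is no measure of fold.

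Entpd1 (CD39), which breaks down extracellular ATP and ADP and is found on microglia and vessels, was at 8.90, 7.26 and 10.5 TPM in control mice. It ran from 11.1 through 13.4 to 14.9 TPM in exposed mice, with the lowest exposed mouse just above the highest control. Its log2 difference of 0.55 was called (SE 0.12, limma adjusted p = 0.77). A processed transcript of 204 bases, about the length of a sequenced fragment, held 8.94% of the control sum and 23.5% of the exposed sum, and the call was lost with protein-coding transcripts only, with transcripts weighted by length and at a common total.

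Prr14, a protein that tethers heterochromatin to the nuclear lamina, was at 8.86, 8.17 and 8.09 TPM in control and from 8.93 through 11.1 to 13.0 TPM in exposed mice. Stress replicate 1 lay just above the highest control, and the log2 difference was 0.37 (SE 0.09, called). The call was lost at a common total, with length-weighted sums and with protein-coding transcripts only, and the groups stayed apart in 1 of the 6 other ways of scaling or summing. Mfng, a glycosyltransferase that modifies Notch receptors, was at 2.61, 2.92 and 2.68 TPM in control and from 3.10 through 4.10 to 5.32 TPM in exposed mice. Dusp11, an RNA phosphatase, was at 11.5, 10.6 and 9.93 TPM in control and from 11.7 through 15.2 to 19.6 TPM in exposed mice, with ethanol replicate 3 next to the controls. The log2 differences of Mfng and Dusp11 were 0.50 (SE 0.13) and 0.48 (SE 0.13) and were called, but both calls were lost with length-weighted sums, with protein-coding transcripts only and without the 3 libraries of largest sum, and that of Dusp11 also at a common total and without control replicate 2 or 3.

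Igf2, an imprinted growth factor made in the adult brain mainly by meninges and choroid plexus, was at 18.9, 14.2 and 17.3 TPM in control mice. It ran from 19.4 through 23.9 to 29.6 TPM in exposed mice, and stress replicate 1 lay closest to the controls. A log2 difference of 0.50 was called (SE 0.14, limma adjusted p = 0.981). The call was lost at a common total, with protein-coding transcripts only and without control replicate 2, and the groups stayed apart in 3 of the 6 other ways of scaling or summing. The 6 meningeal markers, of which Igf2 is one, summed to 953 to 1250 TPM in control and 893 to 1380 TPM in exposed mice, and no other member of that list was called. The choroid plexus sums given above overlapped between the groups, and the part of either tissue in the Igf2 values was not tested. The readthrough gene Gm49394 shares 97.0% of the bases of the Igf2 transcript with the largest share of its TPM sum, on the same strand, so that their reads are hard to tell apart.

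Hist1h2ab, a replication-dependent histone H2A gene, was at 17.2, 17.5 and 14.1 TPM in control and from 18.2 through 23.0 to 43.9 TPM in exposed mice. The highest values were in ethanol replicate 2 and ethanol + stress replicate 2, and ethanol replicate 3 lay just above the controls. Its log2 difference of 0.64 (SE 0.20, called) lost its call in 12 of 27 alternatives. Of the 63 replication-dependent histone genes it was the only one called, where 0.47% of all genes were called, and 53 had a positive difference, against 7662 of all 14455 genes. Their median was 0.19 against 0.01 over all genes. That median was 0.06 without the 3 libraries of largest sum (41 positive) and 0.06 with the length trend removed (42 positive, 0 called). Exons of Gm44484 lie opposite to 29.2% of Hist1h2ab.

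Fli1, an ETS factor of blood and endothelial cells, was at 2.75, 2.90 and 2.78 TPM in control mice. It was at 3.40, 3.16 and 3.11 TPM in ethanol and 3.33, 3.49 and 3.41 TPM in stress mice, and at 4.83, 4.80 and 4.35 TPM in ethanol + stress mice, which lay above all others. The exposed and control mice overlapped in Fli1 at a common total, without the 20 highest genes and with length-weighted sums. Cd52, a surface glycoprotein of lymphocytes and myeloid cells, was at 5.73, 4.65 and 5.54 TPM in control and from 6.11 through 8.34 to 13.7 TPM in exposed mice, with a log2 difference of 0.71 (SE 0.21, called). Fli1 and Cd52 were picked out after their values were seen.

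**Figure D3:**
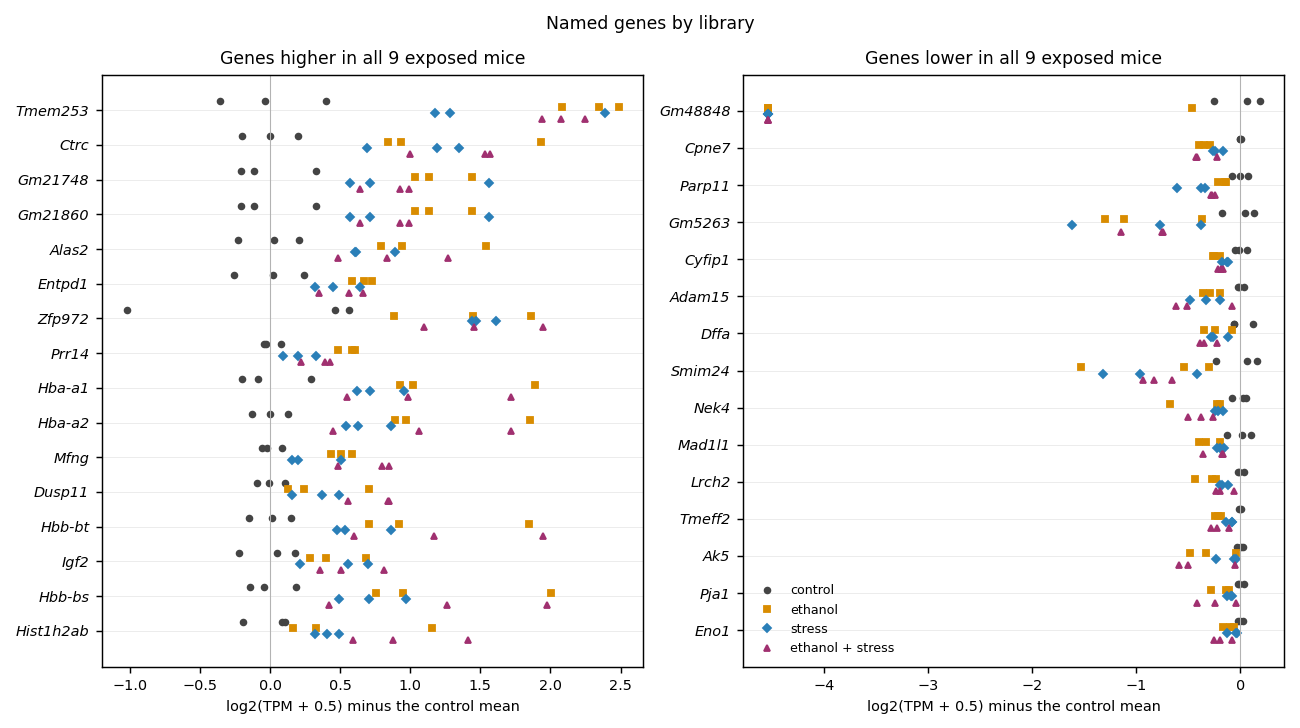
Difference of each library from the control mean in log2(TPM + 0.5) for the 16 higher (left) and 15 lower (right) members named by rule, with 1 point per mouse and a shape and color per group. The exposed points lie on one side of the 3 control points in each row, with a wide space for Tmem253 and Ctrc, a narrow one for most lower genes, and 1 ethanol mouse close to the controls for Gm48848.

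Among the lower members, Cpne7 (chr8:123117374-123135182, plus strand), a copine that binds membrane phospholipids in the presence of calcium, had control values close to each other, at 134, 133 and 133 TPM. It was at 105, 101 and 109 TPM in ethanol, 113, 119 and 111 TPM in stress and 114, 100 and 99.5 TPM in ethanol + stress mice. Stress replicate 2 was the highest exposed mouse and remained well below the controls. Cpne7 was called with a log2 difference of -0.30 (SE 0.06, limma adjusted p = 0.77), with -0.34 for ethanol, -0.22 for stress and -0.35 for both together. Its main coding transcript of 2398 bases, which held 90.8% of the control sum, was lower by the same rule on its own, and the gene was called in all 27 alternatives. Its 3 lowest values were in the 3 libraries of largest sum, without which it was still called.

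Gm48848 (chr9:17719063-17719173, plus strand), a processed pseudogene, was at 11.7, 9.29 and 12.8 TPM in control mice. It was listed at 0 in 8 exposed mice and at 7.94 TPM in ethanol replicate 3. Its single exon of 111 bases is shorter than the mean fragment of 197 to 208 bases, so its TPM cannot be turned into read pairs and the size of its fold cannot be read from these values.

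Gm5263, a processed pseudogene, was at 3.00, 2.33 and 2.80 TPM in control and from 0.545 through 1.37 to 1.98 TPM in exposed mice, without overlap, and was called, a call lost in 5 of 25 alternatives. Exons of Gm29514 lie opposite to 77.9% of it, and exposed values were worth 2.04 to 6.95 read pairs against 6.94 to 9.88 in control. Smim24, a small membrane protein, was at 2.51, 1.78 and 2.31 TPM in control and from 0.429 through 1.01 to 1.68 TPM in exposed mice. Its log2 difference of -0.83 (SE 0.27) was just outside the call threshold, and it met the rule in all 6 other ways of scaling or summing the transcripts.

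Parp11, an ADP-ribosyltransferase, was at 28.4, 31.8 and 30.1 TPM in control and from 19.5 through 24.8 to 27.4 TPM in exposed mice, with the lowest values in stress mice. Its log2 difference was -0.29 (SE 0.08, called). The call was lost in 4 of 27 alternatives, and with protein-coding transcripts only the difference was -0.06. Cyfip1, a subunit of the WAVE complex that regulates actin and a partner of the fragile X protein, was at 81.6, 77.1 and 75.1 TPM in control and from 65.0 through 68.7 to 72.0 TPM in exposed mice. Adam15, a membrane metalloprotease, was at 46.8, 45.4 and 44.9 TPM in control and from 29.6 through 36.3 to 43.3 TPM in exposed mice, and 4731419I09Rik lies opposite to 24.7% of its main transcript. Dffa, the inhibitor of the DNase that is set free in apoptosis, was at 27.0, 27.0 and 30.7 TPM in control and from 21.4 through 23.4 to 26.7 TPM in exposed mice. The log2 differences of these last 3 genes were -0.19 (SE 0.06), -0.34 (SE 0.11) and -0.25 (SE 0.08). All 3 were called, and their calls were lost in 18, 16 and 17 of 27 alternatives.

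The other lower members named by rule were not called. Eno1, the glycolytic enolase, was the most abundant, at 737, 723 and 713 TPM in control and from 607 through 678 to 711 TPM in exposed mice, which is a log2 difference of -0.12 (SE 0.07, limma adjusted p = 0.981). Pja1, a ubiquitin ligase, was at 196, 190 and 189 TPM in control and from 144 through 176 to 187 TPM in exposed mice. Ak5, an adenylate kinase of neurons, was at 140, 142 and 137 TPM in control and from 92.7 through 119 to 136 TPM in exposed mice. In Eno1, Pja1 and Ak5 the lowest values were in ethanol + stress replicates 2 and 3 and ethanol replicate 2, which are the 3 libraries of largest sum. Tmeff2, a transmembrane protein with follistatin-like domains, was at 49.0, 49.3 and 48.6 TPM in control and from 40.1 through 43.1 to 46.5 TPM in exposed mice. Nek4, a protein kinase, Mad1l1, of the spindle checkpoint, and Lrch2, with leucine-rich repeats, had log2 differences of -0.32, -0.25 and -0.21.

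The members as a whole lay close to the rule's edge. Only 16 of the 81 had a space of 0.1 or more on the log2 scale between the groups, 32 of the 53 higher members had a difference under 0.5, and 23 of the 28 lower ones had a difference under 0.5 in size. Sgk3 was the higher member nearest the edge, with a lowest exposed value of 8.758 against a highest control value of 8.746 TPM. Gm10961 lay on the edge outside it, listed at 0 in all control mice and in at least 1 exposed mouse. Copa was the lower member nearest the edge, with both values at 108.9 TPM to 4 digits, and Cep131 lay just outside, at 10.63 TPM in the highest exposed and 10.62 TPM in the lowest control mouse. The median difference was 0.37 in higher and -0.25 in lower members, and 0.01 over all genes.

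The higher members had a median mean level of 11.1 TPM and the lower ones 21.8 TPM, against 17.7 TPM over all genes. The longest transcript had a median of 2402 bases in higher members and 3333 bases in lower members, which is also the median over all genes. Of the higher members 98.1% and of the lower ones 89.3% were protein-coding genes, against 96.0% of all genes, and 3 lower and 1 higher member were pseudogenes. The residual SD had a median of 0.171 in higher and 0.117 in lower members, against 0.199 over all genes on the log2 scale, which follows in part from the choice of genes without overlap.

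The split between higher and lower genes depended on how libraries were scaled. With libraries set to a common total, 25 genes were higher and 43 lower in all exposed mice, in place of 53 and 28, and with the 20 most abundant genes removed before rescaling the numbers were 30 and 43. Higher genes were thus 65.4% of those on one side in the deposited scaling, 36.8% at a common total, 41.1% without the 20 genes, 53.7% after removal of a length trend and 54.1% with length-weighted sums. Of the 81 members, 13 met the rule in all 6 other ways of scaling or summing, 11 higher and 2 lower. They were the 5 blood genes, Zfp972, Hist1h2ab, Cd52, Spryd4, Kcnk6 and Tmem266 above and Cpne7 and Smim24 below, of which Cd52, Spryd4, Kcnk6 and Tmem266 were picked out by this result. Kcnk6, a potassium channel, was at 1.04, 1.08 and 0.864 TPM in control and from 1.18 through 1.72 to 1.88 TPM in exposed mice. Tmem266, a voltage-sensing membrane protein, was at 3.06, 2.91 and 2.88 TPM in control and from 3.17 through 3.55 to 4.26 TPM in exposed mice. Spryd4 was at 6.89, 8.77 and 8.61 TPM in control and from 9.19 through 9.85 to 12 TPM in exposed mice. Each of the 3 cleared the controls by a narrow space.

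The exposed groups were also compared with each other, by differences that hold no control mean but are judged against a spread pooled over all 4 groups, and among genes whose exposed values the rule had chosen. Over all genes, 83 differed among the 3 exposed groups at an unadjusted p under 0.01 (0.574%) and 96 differed between ethanol + stress and the mean of the single exposures (0.664%). At an unadjusted p under 0.05 there were 388 and 514 genes, and limma gave none with an adjusted p under 0.05, the lowest being 0.0632 and 0.834. Among the 81 members, Fli1 was the only one past 0.01 in either test, with a difference of 0.44 between ethanol + stress and single exposures (SE 0.11, limma adjusted p = 0.922). For Tmem253 that difference was 0.13 (SE 0.27, limma adjusted p = 0.937), and for Alas2 it was -0.03. A p that misses the threshold does not show that the exposures acted alike.

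In all 81 members the 3 groups differed from control in the same direction, which the rule fixes. The difference was largest in size in ethanol + stress mice for 36 members, in ethanol mice for 31 and in stress mice for 13, with 1 tie. The same split over all genes was not counted, so these numbers do not rank the exposures. The 3 libraries of largest sum are all in the ethanol and ethanol + stress groups. Side by side, Ctrc differed from control on the log2 scale by 1.24 with ethanol, 1.08 with stress and 1.37 with both. Mfng differed by 0.51, 0.29 and 0.71, and Parp11 by -0.16, -0.44 and -0.27. For the hemoglobin genes and Alas2 stress mice had the smallest of the 3 differences. Without the 3 libraries of largest sum, which leaves 1 ethanol + stress mouse, the list median was 0.86 with ethanol, 0.70 with stress and 0.48 with both, in place of 1.24, 0.70 and 1.08.

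**Figure D4:**
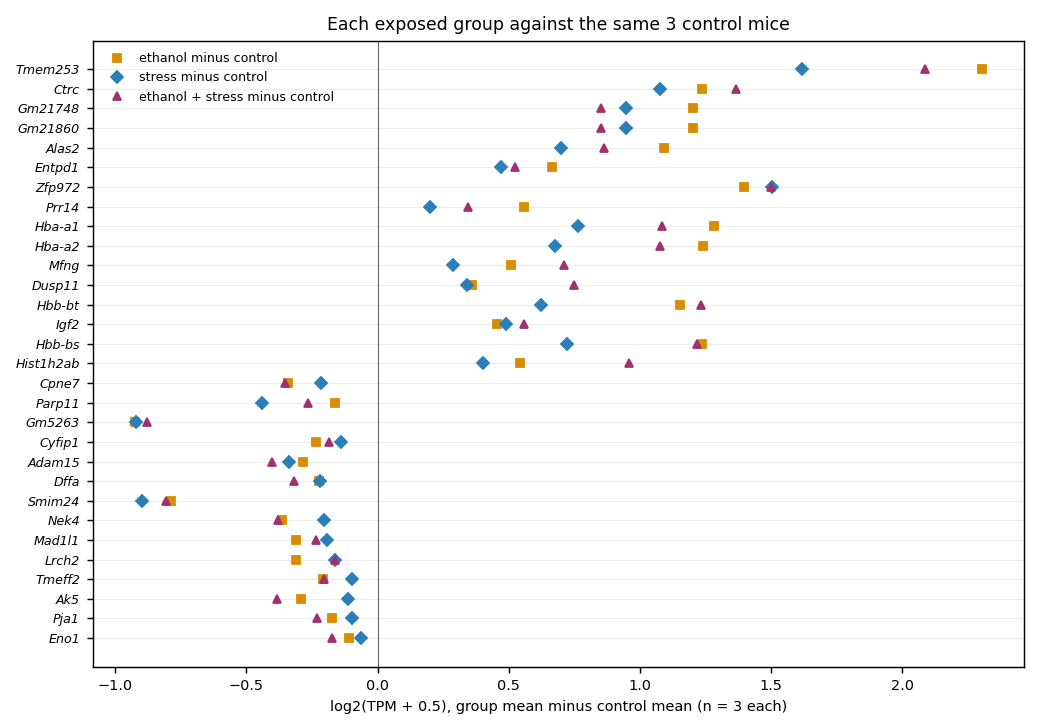
Mean of each exposed group minus the mean of the same 3 control mice in log2(TPM + 0.5) (n = 3 per group), for 30 members named by rule, with Gm48848 left out for its scale. All points of a gene lie on one side of 0, the blood genes are lowest in stress mice, and the lower genes other than Gm5263 and Smim24 lie no further below 0 than -0.44.

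Genes of pathways tied to stress, ethanol and synapses were counted by list. Of 449 genes kept in 19 pathway lists, the only member was Hist1h2ab, where 0.56% of all genes were members, and of 100 genes in 15 marker lists there were 6, the 5 blood genes and Igf2. None of the corticosteroid receptor and CRH genes (8 kept), glucocorticoid-induced genes (15), enzymes of alcohol and acetaldehyde metabolism (9), DNA methylation genes (14), histone deacetylases (11) or GABA-A receptor subunits (12) was called in either direction, with list medians between -0.05 and 0.02. At 0.47% of all genes called, lists of this size would be unlikely to hold a call, so its absence says nothing about them.

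Immediate early genes, which neurons switch on within minutes of activity, were the list furthest below 0. Of 15 kept, 14 had a negative difference, against 6793 of all 14455 genes, with a median of -0.40, and none was called or a member. Genes switched on together in the same mice are not separate observations, so the count of signs is no test. The median was -0.46 to -0.35 over the scalings and -0.34 without the 3 libraries of largest sum. Summed, they were at 394, 379 and 467 TPM in control mice and ran from 246 through 305 to 486 TPM in exposed mice, so that the groups overlapped. Ethanol replicate 3 had the highest sum of all 12 mice. By group the list median was -0.12 for ethanol, -0.51 for stress and -0.50 for ethanol + stress. With length-weighted sums these medians were -0.08, -0.31 and -0.50.

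Lists of abundant housekeeping genes had small differences of mostly one sign. All 84 cytosolic ribosomal protein genes had a positive difference (median 0.16), as did 90 of 96 nuclear genes of oxidative phosphorylation (median 0.12) and all 13 mitochondrially encoded respiratory genes (median 0.16), and none was called. Without the 3 libraries of largest sum the medians were -0.05, -0.06 and -0.06, so the direction of these 3 lists turned. Of the 15 ionotropic glutamate receptor genes 13 had a negative difference with a median of -0.13, and without those libraries 8 had one.

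**Figure D5:**
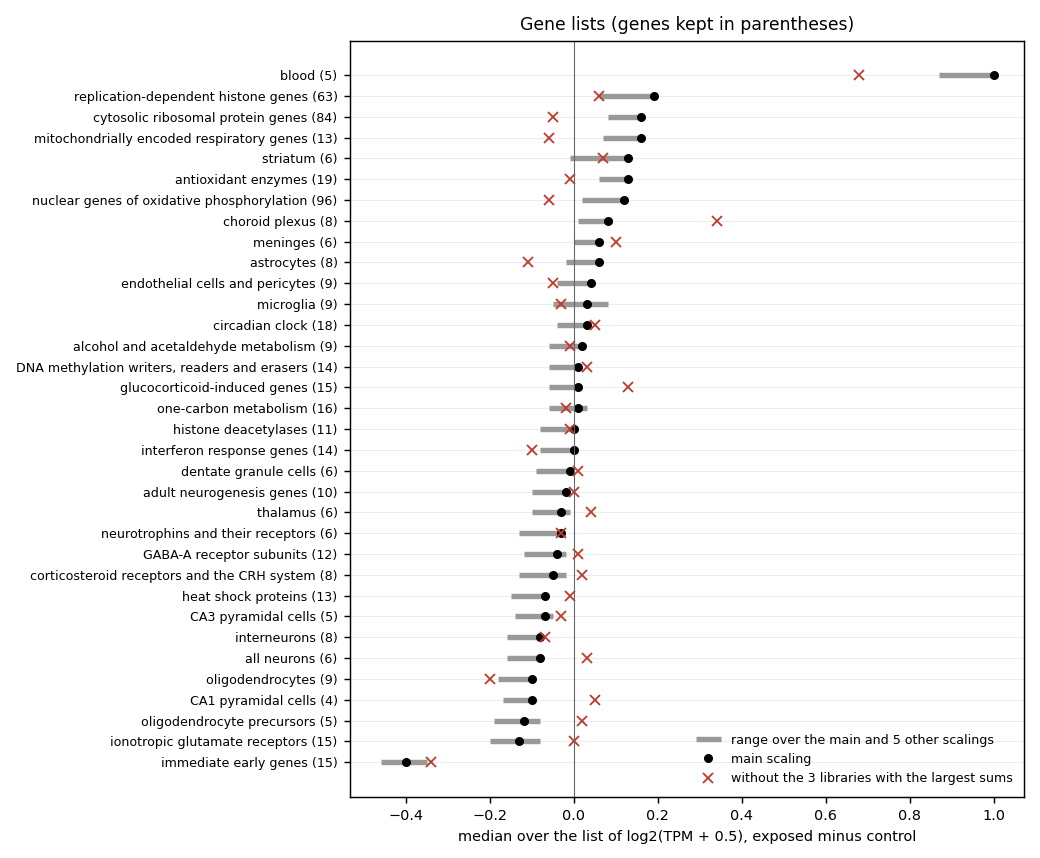
Median difference between exposed and control mice in log2(TPM + 0.5) for each of 34 gene lists, with the number of genes kept in parentheses, a black point for the deposited scaling, a grey bar for the range over 6 scalings and a red cross without the 3 libraries of largest sum. Blood stands at 1.0 (0.68 without those libraries) and immediate early genes at -0.40 (-0.34), while ribosomal and respiratory lists change sign.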

How the data were processed

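RNA-Seq of 12 hippocampal libraries was analysed. The deposited signal is TPM per transcript, which the authors made from paired-end reads of stranded, rRNA-depleted libraries by assignment to Ensembl transcripts of GRCm38 with kallisto and then scaled between libraries. The tool versions, and whether assignment used strand, are not given in the sources used here. Of 115270 transcripts, 113580 were matched to GENCODE vM21 (GRCm38) and summed per gene. The 14455 genes with a mean of 1 TPM or more entered limma 3.58.1 (R 4.3.3, eBayes with trend) as log2(TPM + 0.5), in one model of the 4 groups with the mean of the exposed groups minus control as contrast, two-sided, and adjusted by Benjamini-Hochberg over all genes. Calls are at p under 0.01. A fold on this scale understates the change of low genes. P-values measure the spread between single mice of each group.

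Depth was recovered from low values of genes with 1 transcript, of which 81.7% to 84.0% came out within 0.15 of a whole read pair. It was used for the floor of 3 read pairs, which covers counting error only, and not for tests, because each read pair can be divided among transcripts. The model was tested on simulated data. Samples were grouped by their labels. Python 3.11.15 with pandas 2.3.3, numpy 2.4.6 and matplotlib 3.10.9 was used for joins and plots.

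Named genes are the 12 higher and 12 lower members with the smallest p, the 3 of each direction with the highest mean TPM, members in the gene lists, and Tmem253. The members and lists were chosen with earlier results of these data known. Alternatives covered the pseudocount, the minimum level, the scaling, transcript sums, the model, a replicate block, a minimum space between groups and leaving out each mouse. The methylation libraries of the study were not analysed here.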

Additional observations from a re-analysis of the deposited data

Results flagged for a closer look

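Among the 31 named genes, 1 had a mouse far from the others of the exposed set. Gm48848, the 111-base pseudogene, was at 7.94 TPM in ethanol replicate 3 and listed at 0 in the other 8 exposed mice, so the space to the nearest mouse was the whole range. For continuous values chance alone sets apart about 1 in 20 such groups. That rate does not hold here, since with 8 mice at 0 any other value would be flagged. The cause was not tested.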

How the results depend on the processing

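In 828 recomputed values of the 31 named genes none reversed, 702 kept their side of the threshold, 97 lost the call and 29 gained it, and 8 of the 23 called genes were called in every alternative that kept them: Alas2, Hba-a1, Hba-a2 and Cpne7 in 27, Tmem253, Ctrc and Zfp972 in 26 and Gm48848 in 25. Counts moved more, and beyond the number of genes or mice entering each count the cause was not tested. Genes on one side numbered 81 and became 132 with no filter (58 lower), 16 with a space of 0.1 or more (12 higher, 4 lower) and 216 without the 3 libraries of largest sum, an alternative chosen after seeing the data (131 higher, 85 lower). The 53 higher became 25 at a common total, 30 without the 20 highest genes and 33 with length-weighted sums. The 28 lower became 43 at a mean of 0.1 TPM or more, 43 at a common total, 43 without the 20 highest genes and 44 with the length trend removed. The 68 limma calls became 120 at a mean of 0.1 TPM or more (44 lower), 45 at 5 TPM or more (9 lower), 173 with no filter (94 higher, 79 lower) and 44 at a common total (25 higher), and without the 3 libraries 29 were lower in place of 16. An adjusted p under 0.05 was reached by 1 gene at a pseudocount of 0.1 (Tmem253), 1 with no filter (Gm9816), 2 without the eBayes trend (Tmem253 and Gm49070) and 1 without the 3 libraries (Gm17482). Calls among the exposed groups went from 83 to 148 at a mean of 0.1 TPM or more, 52 at 5 TPM or more, 192 with no filter and 41 at a common total. Calls of ethanol + stress against single exposures went from 96 to 62 at 5 TPM or more and 202 with no filter.

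Leaving out each mouse in turn gave 95 to 390 genes on one side (58 to 219 higher, 33 to 171 lower), 55 to 131 calls (42 to 85 higher, 13 to 46 lower), 0 to 1 genes at an adjusted p under 0.05, 59 to 208 calls among exposed groups and 53 to 470 of ethanol + stress against single exposures. Genes on one side exceeded 1.5 times the count without control replicate 1 (390), 2 (292) or 3 (259), ethanol replicate 3 (151) and stress replicate 2 (126), where fewer mice must agree, and lower genes also without stress replicate 3 (45). Calls exceeded it without ethanol replicate 3 (105) and ethanol + stress replicate 1 (131), the second of which also gave the 208 and 470. The 96 calls of ethanol + stress against single exposures became 199 without ethanol replicate 2 and 53 without ethanol + stress replicate 2. The deviations of same-numbered mice correlated at -0.213 to 0.2, above 0.1 in 2 of 18 pairs. The highest was between ethanol and ethanol + stress replicate 2. With 3 mice per group, these correlations cannot decide whether same-numbered mice were paired or littermates. A replicate block gave 73 calls (58 higher, 15 lower) in place of 68, 79 among exposed groups and 91 of ethanol + stress against single exposures. At 12020000 to 14900000 read pairs, genes near 1 TPM rest on a few read pairs, which limits calls such as Zfp972 and Tmem253.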
